A study of Bos indicus x Bos taurus with 17 samples.

Results

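DNA methylation marks cytosines that stand before guanines, and it is written, copied, removed and protected by a small set of proteins. DNMT1 copies the marks onto the new strand after replication, and UHRF1 leads it to half-methylated DNA. DNMT3A and DNMT3B place marks on unmethylated DNA. TET1, TET2 and TET3 oxidise methylcytosine, which starts its removal. ZFP57 binds the methylated copy of imprinted control regions and recruits TRIM28, the corepressor that gathers histone and DNA methyltransferases there, so that parental imprints outlast the genome-wide loss of methylation in the early embryo. Imprinted genes are often studied in fetuses conceived in vitro, because the embryo is handled while these marks are being kept or lost.

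The RNA levels of these 9 genes were described here in fetal bovine liver and skeletal muscle. The genes were chosen by name, and each was found once among the 21048 genes of both tissue tables. The study compared bovine fetuses at about day 105, Nelore × Holstein F1 hybrids, that were conceived by artificial insemination (Control) or in vitro by assisted reproductive technology (ART), all labelled healthy. Liver and muscle of the same 6 fetuses were used, namely ART 1, 2, 3 and 4 and Control 2 and 4, which gives 12 libraries of poly(A) RNA. The study's text lists ART 1 to 3 as having a weight similar to that of the Control fetuses, and ART 4 is given in the labels only. Fetal sex is not in the labels, and the kidney libraries that the labels also list were not analysed here.

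The 12 libraries held between 12433300 and 43339598 counted reads, and the counts of the 9 genes lay between 173 and 7800 per library. Levels are given as CPM, counts relative to a library total of 1e+06, after scaling by the trimmed mean of M values (TMM). Markers of the labelled tissue were present in every library. Those of hepatocytes summed to between 36296 and 357702 CPM in liver and between 24.8 and 395 CPM in muscle, and those of skeletal muscle to between 20733 and 30954 CPM in muscle and between 8.45 and 46.3 CPM in liver. Both libraries of Control 2 stood apart from the rest. The first principal component, with 51.0% of the variance in liver and 53.6% in muscle, placed Control 2 at -46.2 and -46.1, and every other library at 2.55 or above in liver and 4.85 or above in muscle. The liver of Control 2 also held the highest sums of hepatocyte markers (357702 CPM) and of erythroid markers (25544 CPM), whereas the other livers did not exceed 66329 and 7494 CPM. With 2 Control fetuses, the log2 fold changes of ART over Control of the 9 genes are therefore given with and without Control 2.

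Liver and muscle differed in the RNA levels of 7 of the 9 genes. Liver held more DNMT1, UHRF1 and DNMT3B RNA, muscle held more DNMT3A, TET1, TET2 and ZFP57 RNA, and TRIM28 was at nearly one level in both tissues. Each of these differences passed the edgeR quasi-likelihood test at an adjusted p of 0.05, and liver and muscle values did not overlap for any of the 7, beside 64.6% of all genes tested without overlap (31.8% with liver above). Differences between tissues were the rule in these data, since 81.3% of the 12923 genes tested were called, 40.6% higher in liver and 40.7% higher in muscle. The 7 of 9 called here were close to that share. The median size of the change, on the log2 scale, was 1.41 over the 9 genes and 0.91 over all genes tested.

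**Figure D1:**
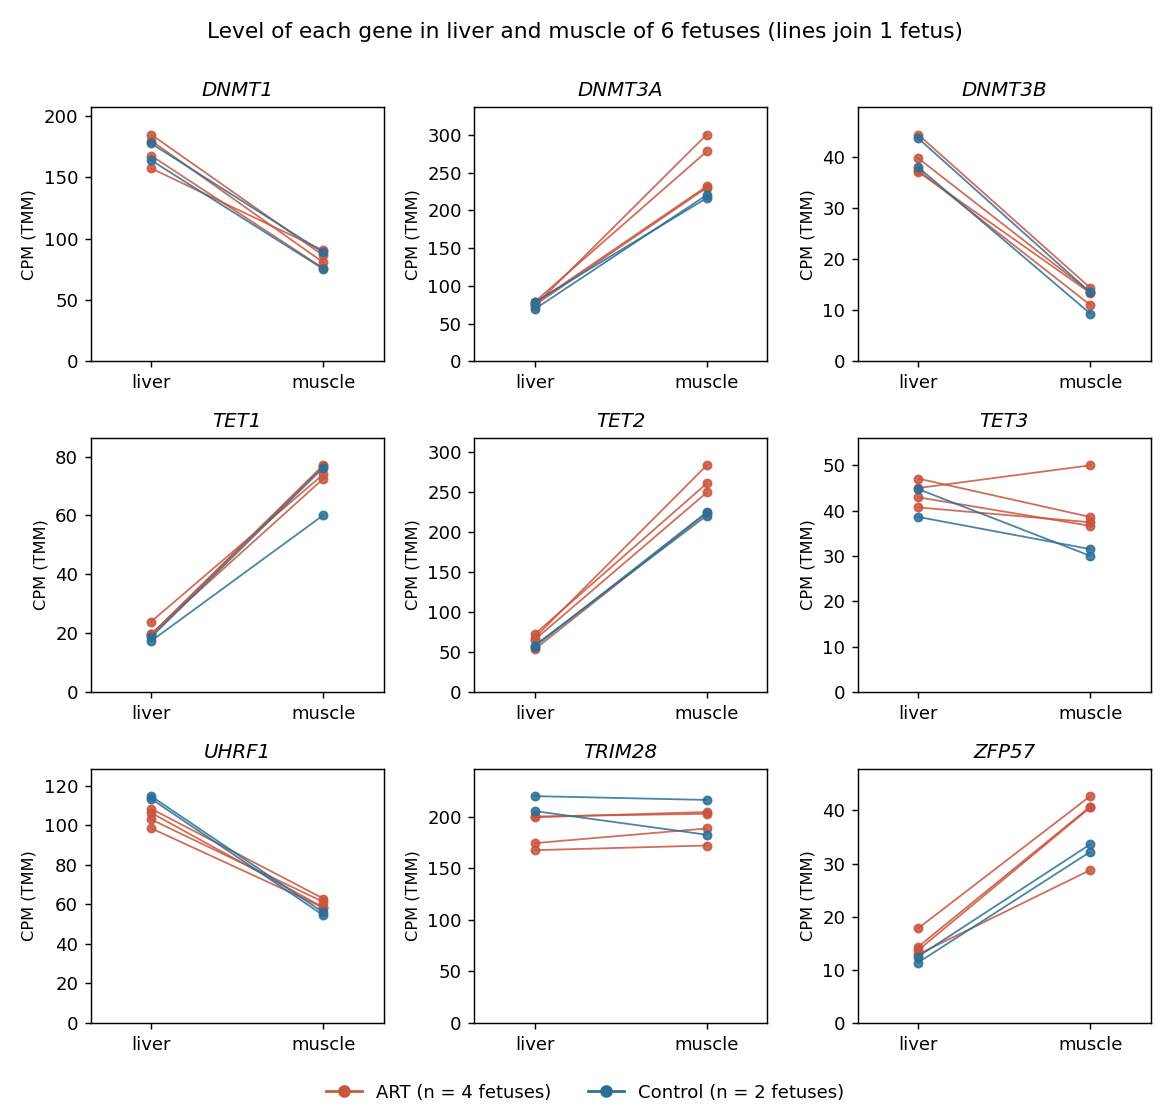
Level of each gene in CPM (y axis, linear and starting at 0) in liver and muscle (x axis). Each line joins both tissues of 1 fetus, with 4 ART fetuses in red and 2 Control fetuses in blue. All 6 lines rise towards muscle for DNMT3A, TET1, TET2 and ZFP57 and fall towards muscle for DNMT1, DNMT3B and UHRF1.

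The maintenance enzyme DNMT1 (gene 281119, ARS-UCD1.2 chr7:14679342-14730652, minus strand) was measured in liver at 180.0, 168, 157 and 185 CPM in ART 1 to 4 and at 178 and 164 CPM in Control 2 and 4. In muscle it was measured at 80.7, 75.9, 90.4 and 86.4 CPM in ART 1 to 4 and at 88.8 and 75.3 CPM in Control 2 and 4. Every liver value was above every muscle value, and the ART and Control values lay among each other in both tissues. The log2 fold change of liver over muscle was 1.05 (SE 0.08, edgeR adjusted p = 1.01e-08), and the ratio in single fetuses ran from 1.74 to 2.23.

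UHRF1 (gene 530411, chr7:19223876-19257799, minus strand), the partner of DNMT1, followed the same order of tissues. In liver it was at 103, 98.6, 106 and 108 CPM in ART 1 to 4 and at 113 and 115 CPM in Control 2 and 4. Muscle held 61.3, 58.4, 58.5 and 63.0 CPM in ART 1 to 4 and 54.5 and 56.0 CPM in Control 2 and 4. The fitted log2 fold change was 0.87 (SE 0.07, edgeR adjusted p = 3.13e-08), with ratios of 1.68 to 2.08 in single fetuses. The UHRF1 count over the DNMT1 count ran from 0.573 to 0.701 in liver and from 0.614 to 0.770 in muscle, so that these ranges overlapped.

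The pair of enzymes that set new marks took opposite directions. DNMT3A (gene 359716, chr11:73971560-74074893, plus strand) was at 76.4, 74.3, 73.5 and 78.7 CPM in the livers of ART 1 to 4 and at 78.3 and 69.1 CPM in those of Control 2 and 4. In muscle the values were 232, 230.3, 301 and 278 CPM in ART 1 to 4 and 216 and 221 CPM in Control 2 and 4. All muscle values lay well above all liver values, the muscles of ART 3 and ART 4 were the highest, and both Control muscles were the lowest of their tissue. The log2 fold change of liver over muscle was -1.71 (SE 0.09, edgeR adjusted p = 2.4e-10), which is 2.77- to 4.09-fold more in muscle in single fetuses.

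DNMT3B (gene 353354, chr13:62142602-62176735, plus strand) was at 37.4, 39.8, 37.1 and 44.4 CPM in the livers of ART 1 to 4 and at 43.7 and 38.0 CPM in those of Control 2 and 4. Muscle held 11.03, 13.5, 13.4 and 14.4 CPM in ART 1 to 4 and 13.5 and 9.35 CPM in Control 2 and 4. Liver held more in all 6 fetuses, by 2.77- to 4.06-fold, and the fitted log2 fold change was 1.68 (SE 0.11, edgeR adjusted p = 5.82e-09). DNMT3B had the largest rise in liver among the 9 genes.

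Ratios of counts within 1 library do not depend on how libraries are scaled, and they set the balance of the writers side by side. There were 0.433 DNMT3A counts for each DNMT1 count in liver at the median (range 0.422 to 0.467) and 2.98 in muscle (range 2.44 to 3.33). For DNMT3A over DNMT3B the median was 1.84 in liver (1.77 to 2.04) and 20.2 in muscle (16.1 to 23.6). DNMT3B over DNMT1 ran from 0.208 to 0.246 in liver and from 0.124 to 0.179 in muscle. Thus the DNMT1 count exceeded the DNMT3A count in every liver library, and the DNMT3A count exceeded the DNMT1 count in every muscle library. Read counts grow with the length of a transcript, so a ratio between genes is compared here between tissues and not read as a ratio of molecules.

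**Figure D2:**
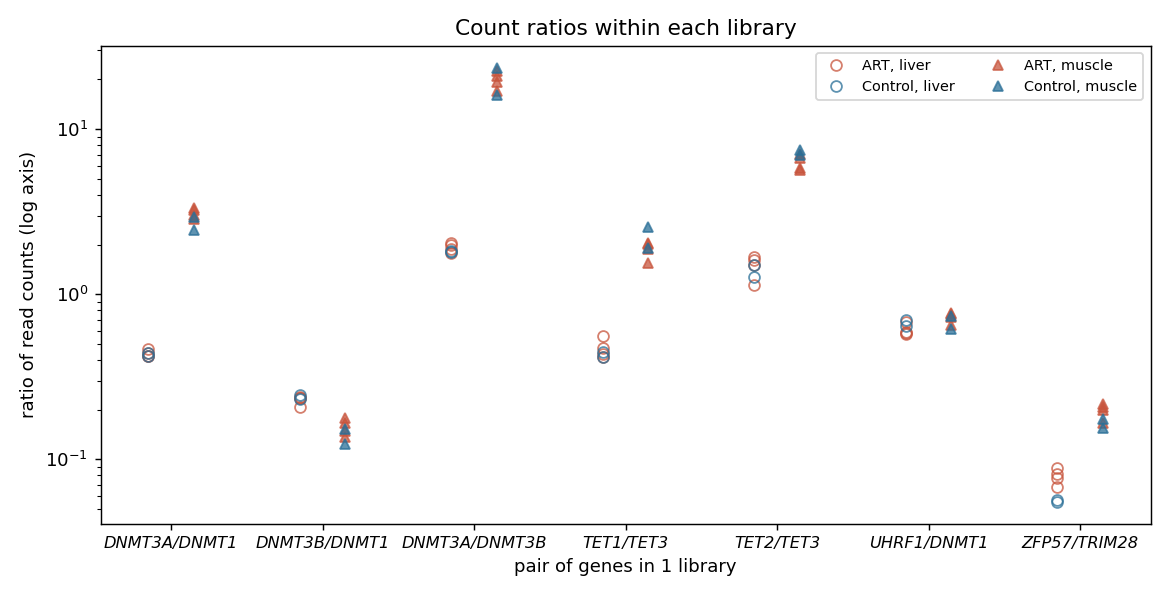
Ratio of the read counts of pairs of genes within 1 library (y axis, log scale) for 7 pairs (x axis). Open circles are liver and filled triangles are muscle, with ART in red and Control in blue. Liver and muscle separate in every pair but UHRF1 over DNMT1, where 0.573 to 0.701 in liver meets 0.614 to 0.770 in muscle.

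Among the erasers, TET1 and TET2 were higher in muscle and TET3 was not called in either direction. TET1 (gene 513640, chr28:24907388-25041033, plus strand) was at 23.9, 19.4, 19.6 and 19.7 CPM in the livers of ART 1 to 4 and at 17.3 and 18.6 CPM in those of Control 2 and 4. In muscle it was at 73.9, 76.8, 77.0 and 72.5 CPM in ART 1 to 4 and at 60.1 and 76.2 CPM in Control 2 and 4. The tissues were far apart, and the liver of ART 1 and the muscle of Control 2 stood off from the rest of their tissue. The log2 fold change of liver over muscle was -1.88 (SE 0.09, edgeR adjusted p = 7.52e-11).

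TET2 (gene 538481, chr6:19895945-20039487, minus strand) had the largest difference between tissues of the 9 genes. Its level was 72.3, 65.4, 67.9 and 53.5 CPM in the livers of ART 1 to 4 and 58.3 and 56.8 CPM in those of Control 2 and 4. In muscle it was 261, 249, 283 and 224 CPM in ART 1 to 4 and 221 and 225 CPM in Control 2 and 4. In both tissues ART 1 to 3 lay above ART 4 and both Control fetuses. The log2 fold change of liver over muscle was -1.97 (SE 0.09, edgeR adjusted p = 5.62e-11), with 3.61- to 4.19-fold more in muscle in single fetuses.

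TET3 (gene 101904937, chr11:10556337-10667630, minus strand) was at 42.9, 40.7, 45.0 and 47.1 CPM in the livers of ART 1 to 4 and at 38.6 and 44.7 CPM in those of Control 2 and 4. In muscle it was at 36.6, 37.4, 49.97 and 38.6 CPM in ART 1 to 4 and at 31.5 and 30.01 CPM in Control 2 and 4. The muscle of ART 3 was above every liver value, and the other muscle values lay at or below the low end of the liver values. Liver was higher in 5 of 6 fetuses, ART 3 being the exception. The log2 fold change of liver over muscle was 0.22 (SE 0.10, edgeR adjusted p = 0.0612), which missed the threshold. When edgeR paired both tissues of a fetus by a replicate block, it was 0.22 with an adjusted p of 0.0449, and without ART 3 it was 0.29 with an adjusted p of 0.0127.

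The balance of the erasers therefore differed between tissues. The TET2 count was 1.14 to 1.69 times the TET3 count in liver and 5.67 to 7.49 times in muscle. The TET1 count was below the TET3 count in every liver library, at 0.417 to 0.557 of it, and above it in every muscle library, at 1.54 to 2.54 times.

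The imprint keepers did not move as a pair. TRIM28 (gene 519422, chr18:65769086-65775448, plus strand) was at 168, 174, 199.5 and 200.3 CPM in the livers of ART 1 to 4 and at 220.0 and 206 CPM in those of Control 2 and 4. Muscle held 172, 189, 205 and 203 CPM in ART 1 to 4 and 216 and 183 CPM in Control 2 and 4. The tissues overlapped throughout, ART 1 was lowest and Control 2 highest in both tissues, and the fitted log2 fold change of liver over muscle was -0.003 (SE 0.08, edgeR adjusted p = 0.977). Its 95% interval, -0.18 to 0.18, bounds a difference between the tissues in either direction.

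ZFP57 (gene 786262, chr23:28936965-28945369, plus strand) was at 12.9, 14.3, 17.8 and 13.7 CPM in the livers of ART 1 to 4 and at 12.5 and 11.4 CPM in those of Control 2 and 4. Muscle held 28.8, 40.7, 42.7 and 40.6 CPM in ART 1 to 4 and 33.6 and 32.2 CPM in Control 2 and 4. Muscle was higher in all 6 fetuses, by 2.23- to 2.97-fold, and the log2 fold change of liver over muscle was -1.41 (SE 0.12, edgeR adjusted p = 5.36e-08). The ZFP57 count over the TRIM28 count was 0.0727 at the median in liver (0.0554 to 0.0893) and 0.188 in muscle (0.155 to 0.216).

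**Figure D3:**
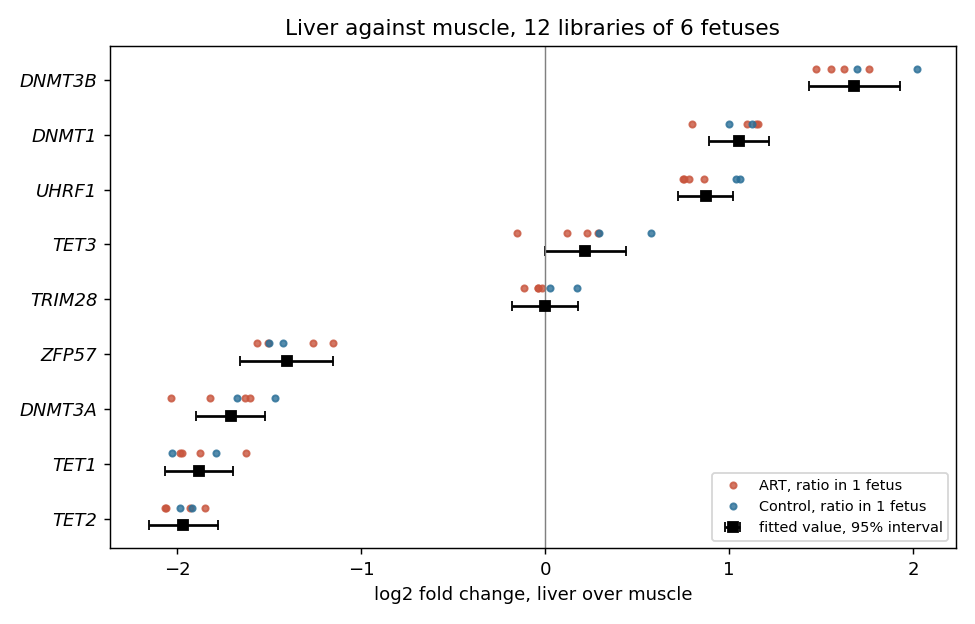
Log2 fold change of liver over muscle (x axis) for the 9 genes (y axis). Black squares are fitted values with 95% intervals over 12 libraries, and dots are the ratios in single fetuses, ART in red and Control in blue. Values run from -1.97 for TET2 to 1.68 for DNMT3B, and the intervals of TRIM28 and TET3 include 0.

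Some measures of the libraries moved with these tissue differences. DNMT1 and UHRF1 serve DNA replication, and proliferation markers summed to between 3881 and 4201 CPM in liver and between 867 and 984 CPM in muscle, with 14 of 14 markers called higher in liver and none at 0 in either tissue. Macrophage markers were called higher in liver for 7 of 7 genes, with sums of 444 to 660 CPM against 73.3 to 112 CPM. Connective tissue markers were called higher in muscle for 7 of 7 genes, with sums of 22690 to 30460 CPM against 849 to 1482 CPM. Their part in the 7 differences was not tested, and in bulk tissue fewer cells of a type and less RNA per cell cannot be told apart.

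Gene length moved with the tissue difference as well. The listed length of each gene was its whole span, introns included, so the counts may hold reads from introns as well as from mature messenger RNA. When the 12923 genes were divided by span into 5 classes of equal size, the median log2 fold change of liver over muscle was 0.27 in the shortest class and -0.63 in the longest (spans of 89579 bases or more), where 59.5% of genes were called higher in muscle. DNMT3A, TET1, TET2 and TET3 belong to the longest class, with spans of 103334, 133646, 143543 and 111294 bases, and TET3 was not among those called. ZFP57 was higher in muscle with a span of 8405 bases, in the shortest class. The part of span in the difference of single genes was not tested.

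Levels were compared between genes only after division by span, since transcript lengths were not used here. In liver, TRIM28 led with 30.6 ± 3.11 CPM per kb of span (SD, n = 6), followed by DNMT1 at 3.35 ± 0.21 and UHRF1 at 3.17 ± 0.18, which lay within each other's spread. ZFP57 came next at 1.64 ± 0.26, then DNMT3B at 1.17 ± 0.09 and DNMT3A at 0.73 ± 0.03 CPM per kb. TET2 at 0.43 ± 0.05 and TET3 at 0.39 ± 0.03 lay within their spread, and TET1 was last at 0.15 ± 0.02 CPM per kb.

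In muscle, TRIM28 again led with 30.6 ± 2.56 CPM per kb of span (SD, n = 6), and ZFP57 was second at 4.34 ± 0.67. DNMT3A followed at 2.38 ± 0.34 CPM per kb. UHRF1 at 1.73 ± 0.09, TET2 at 1.70 ± 0.18 and DNMT1 at 1.62 ± 0.13 could not be ordered within their spread. TET1 was at 0.54 ± 0.05 CPM per kb, and DNMT3B at 0.37 ± 0.06 and TET3 at 0.34 ± 0.06 closed the order within each other's spread. Division by span lowers genes with long introns such as TET1 and TET2 against compact genes such as TRIM28.

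For 3 of the 9 genes, another gene on the opposite strand overlaps the span, and whether counting used strand is not given in the sources used here. The overlap of DNMT3A covers 2158 bases and that of UHRF1 with ARRDC5 covers 1542 bases, and the partner reached at most 0.985 CPM and 4.55 CPM in a library. ZFP57 shares 4540 bases with MOG, a myelin gene. MOG had 0 to 13 counts in 10 libraries, and in Control 2 it had 146 counts in liver and 467 in muscle, where ZFP57 had 173 and 444 counts. Values of ZFP57 in Control 2 are therefore uncertain. With each fetus left out in turn, its log2 fold change of liver over muscle ran from -1.45 to -1.37.

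Whether conception by ART changed these genes was asked within each tissue, with 4 ART against 2 Control fetuses. No member passed the edgeR test in liver or in muscle. In liver 0% of the 11304 genes tested were called, and 8.39% had an unadjusted p under 0.05, while DESeq2 called 56 genes. In muscle 0.00855% of the 11695 genes tested were called (1 gene), and 9.19% had an unadjusted p under 0.05, while DESeq2 called 106 genes. Among the 9 genes, an unadjusted p under 0.05 was found for 0 in liver and for 1 in muscle, TET3. DESeq2 and the likelihood ratio test of edgeR called 0 of the 9 in either tissue.

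**Figure D4:**
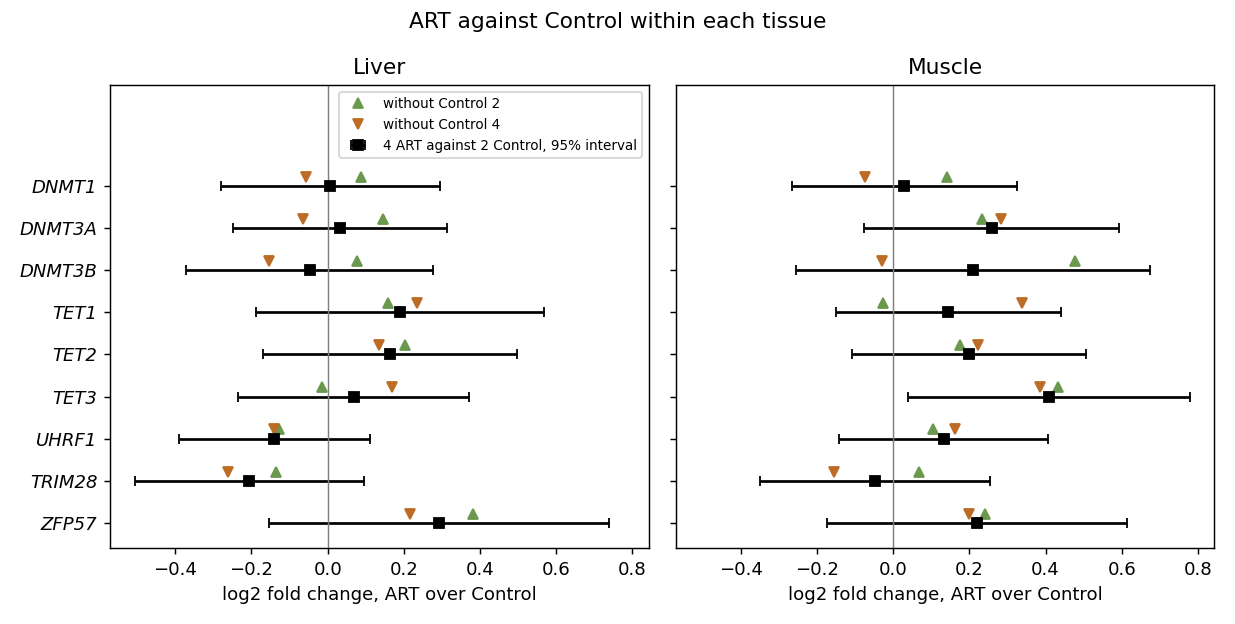
Log2 fold change of ART over Control (x axis) for the 9 genes (y axis) in liver (left) and muscle (right). Black squares are fitted values of 4 ART against 2 Control libraries with 95% intervals, and triangles are the values without Control 2 or without Control 4. In muscle the interval of TET3, 0.04 to 0.78, lies above 0, and all other intervals in both tissues include 0.

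In liver, values of ART and Control did not overlap for 4 of the 9 genes, beside 18.5% of all genes tested in either direction and 9% with ART higher. The smallest one-sided p that an exact permutation of 4 against 2 fetuses can give is 0.0667, so no single gene can pass by such separation. TET1 and ZFP57 were higher in all 4 ART livers than in both Control livers. The log2 fold change was 0.19 for TET1 (SE 0.17, edgeR adjusted p = 0.691) and 0.29 for ZFP57 (SE 0.20, edgeR adjusted p = 0.629). UHRF1 and TRIM28 were lower in all 4 ART livers, with log2 fold changes of -0.14 (SE 0.11, edgeR adjusted p = 0.667) and -0.21 (SE 0.13, edgeR adjusted p = 0.624). Without Control 2, these values were 0.16 for TET1, 0.38 for ZFP57, -0.13 for UHRF1 and -0.13 for TRIM28. Sums of cell type markers moved with this contrast. Hepatocyte markers summed to between 36296 and 58805 CPM in ART livers and between 66329 and 357702 CPM in Control livers. Endothelial markers summed to between 461 and 499.8 CPM and between 504 and 508 CPM. Erythroid markers summed to between 6501 and 7481 CPM and between 7494 and 25544 CPM. The proliferation sum went the other way, at 3933 to 4201 CPM in ART livers and 3881 to 3904 CPM in Control livers. Its single markers were mixed, with a median log2 fold change of 0.04. Without overlap, MKI67 was higher in ART livers (0.14), and MCM4 (-0.24) and MCM7 (-0.14) were lower. ART and Control did not overlap in any of these sums, and no marker was at 0. Control 4 alone held 66329 CPM of hepatocyte, 504 of endothelial, 7494 of erythroid and 3904 of proliferation markers. Its endothelial, erythroid and proliferation sums lay close to the ART values. Each endothelial marker alone overlapped, and hepatocyte markers had a median log2 fold change of -0.73, with HNF4A at 0.14 and APOB at 0.03. Erythroid markers had a median of 0.09, which is not the direction of their sum. No marker of these lists was called, and their part in the values of these 4 genes was not tested.

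The other liver values overlapped between groups and were about the size of their SE or smaller. TET2 differed by 0.16 on the log2 scale (SE 0.15), TET3 by 0.07 (SE 0.13), DNMT3A by 0.03 (SE 0.13), DNMT1 by 0.01 (SE 0.13) and DNMT3B by -0.05 (SE 0.15). Their edgeR adjusted p values ran from 0.696 for TET2 to 0.987 for DNMT1. Without Control 2 the values were 0.20 for TET2, -0.01 for TET3, 0.14 for DNMT3A, 0.09 for DNMT1 and 0.08 for DNMT3B. For ZFP57 the 95% interval was -0.15 to 0.74, which spans both directions.

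In muscle, DNMT3A, TET3 and UHRF1 were higher in all 4 ART muscles than in both Control muscles, which is 3 of the 9 genes beside 16.1% of all genes tested in either direction and 8.11% with ART higher. TET3 had the largest difference, with a log2 fold change of 0.41 (SE 0.17, unadjusted p = 0.0336, edgeR adjusted p = 0.493). It was 0.43 without Control 2, and the ART 3 muscle, at 49.97 CPM, stood far above the other ART muscles. DNMT3A differed by 0.26 (SE 0.15, edgeR adjusted p = 0.653), with a 95% interval of -0.08 to 0.59, and by 0.23 without Control 2. UHRF1 differed by 0.13 (SE 0.12, edgeR adjusted p = 0.796) and by 0.10 without Control 2.

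The remaining muscle values overlapped between groups. ZFP57 differed by 0.22 (SE 0.18), DNMT3B by 0.21 (SE 0.21), TET2 by 0.20 (SE 0.14), DNMT1 by 0.03 (SE 0.13) and TRIM28 by -0.05 (SE 0.14) on the log2 scale. Without Control 2 these were 0.24 for ZFP57, 0.48 for DNMT3B, 0.17 for TET2, 0.14 for DNMT1 and 0.07 for TRIM28. DNMT3B moved most, and Control 4 held its lowest level, 9.35 CPM. The value of TET1, 0.14 (SE 0.13), rested on Control 2, since it was -0.03 without Control 2 and 0.34 without Control 4. In this tissue 8 of 9 log2 fold changes were above 0, beside 50.1% of all genes tested, and in liver it was 6 of 9, beside 51.2%. The median over the longest class of genes by span was 0.19 in muscle and 0.11 in liver, and 4 of the 9 genes belong to that class. Proliferation markers summed to between 867 and 926 CPM in ART muscle and between 922 and 984 CPM in Control muscle. Connective tissue markers summed to between 22690 and 27058 CPM in ART muscle and between 29152 and 30460 CPM in Control muscle, without overlap and with no marker at 0, and 0 of 7 were called. The part of either list in these values was not tested.

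Whether the difference by conception was another in liver than in muscle was tested as an interaction over all 12 libraries. Of 12923 genes, 0% were called by edgeR, 5.5% had an unadjusted p under 0.05, and DESeq2 called 37 genes, none of the 9 among them. The interaction nearest to the threshold was that of UHRF1, whose ART values lay below Control in liver and above it in muscle, at -0.26 on the log2 scale (SE 0.13, unadjusted p = 0.0773, edgeR adjusted p = 0.929). TET3 had an interaction of -0.33 (SE 0.21, edgeR adjusted p = 0.938). Without Control 2 these were -0.21 for UHRF1 and -0.43 for TET3. Within libraries, the ZFP57 over TRIM28 ratio in liver was 0.0683 to 0.0893 in ART and 0.0554 to 0.0568 in Control fetuses. Of 14 combinations of gene pair and tissue, it was the only 1 in which ART and Control did not overlap. Among single genes, 18.5% in liver and 16.1% in muscle did not overlap, and no share over all pairs of genes was computed. The ratio also rests on the ZFP57 count of Control 2, which is uncertain.

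The enzymes work with many partners, which were grouped into 8 lists by their roles. Of the 78 genes in these lists, 76 were in the tables and 64 had enough counts to be tested between tissues. Of these 64, 35 were higher in liver, 15 were higher in muscle and 14 were not called, which is 78.1% called beside 81.3% of all genes. The counts of each list below stand beside the same share, with 40.6% of all genes higher in liver and 40.7% higher in muscle. The median log2 fold change of liver over muscle was 0.37 over the lists and 0.0061 over all genes tested.

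Among partners of the writers, 4 of 8 tested genes were higher in liver and 2 in muscle. PCNA, the replication clamp that binds DNMT1, was at 279.7 to 401 CPM in liver and 57.8 to 81.8 CPM in muscle (log2 fold change 2.13, SE 0.12, edgeR adjusted p = 5.25e-10). USP7, a deubiquitinase that binds DNMT1 and UHRF1, was higher in liver by 1.29 (SE 0.07). TRDMT1, a member of the DNMT family that methylates transfer RNA, was higher in muscle, with 70.1 to 158 CPM there and 21.5 to 31.9 CPM in liver (log2 fold change -1.81, SE 0.18). DNMT3L, the partner of DNMT3A in germ cells, had 0 counts in every liver library and at most 6 counts in a muscle library, and it was not tested.

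All 11 tested genes of base excision repair and active demethylation differed between tissues, 8 higher in liver and 3 in muscle, beside 81.3% of all genes. The stress-inducible family of GADD45 proteins, which have been linked to demethylation, was split. GADD45A was at 61.7 to 73.9 CPM in liver and 6.46 to 10.2 CPM in muscle (log2 fold change 3.08, SE 0.12), and GADD45B was higher in liver by 2.53 (SE 0.19). GADD45G went the other way at -2.07 (SE 0.20), with 1.21 to 2.60 CPM in liver and 5.73 to 9.77 CPM in muscle.

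Among proteins with a CXXC domain, which binds unmethylated CpG, 3 of 6 tested genes were higher in liver and 1 in muscle. KMT2A, a histone H3 lysine methyltransferase, was the one higher in muscle (log2 fold change -1.02, SE 0.08), and KDM2B (0.90, SE 0.08) and CXXC5 (0.53, SE 0.07) were higher in liver. Among readers of methylated CpG, 4 of 7 were higher in liver and 2 in muscle. ZBTB4 was higher in muscle (-1.20, SE 0.09), and ZBTB33, also known as Kaiso, was higher in liver (0.49, SE 0.13).

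Genes of silencing by KRAB zinc finger proteins and TRIM28 had 4 of 9 tested members higher in muscle, 1 higher in liver and 4 not called. ZNF445, a zinc finger protein that keeps imprints together with ZFP57, was at 55.3 to 70.8 CPM in muscle and 34.0 to 40.0 CPM in liver (log2 fold change -0.74, SE 0.07), in the direction of ZFP57. ATF7IP, a partner of the histone methyltransferase SETDB1, was higher in liver (0.56, SE 0.10). In the list of other imprint factors and histone modifiers, 4 of 8 were higher in liver and 3 in muscle. EHMT1, which methylates histone H3 at lysine 9, was higher in muscle (-1.27, SE 0.14), and the histone demethylase KDM1B (0.81, SE 0.10) and ARID4A (0.96, SE 0.14) were higher in liver.

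Supply of the methyl donor had 11 of 15 tested genes higher in liver, 0 higher in muscle and 4 not called. BHMT, which remethylates homocysteine with betaine, was at 332 to 652 CPM in liver and at most 0.606 CPM in muscle. MAT1A, the hepatic synthase of S-adenosylmethionine, was at 468 to 895 CPM in liver and at most 1.51 CPM in muscle. CBS, which commits homocysteine to cysteine synthesis, was higher in liver by 3.61 on the log2 scale (SE 0.18, edgeR adjusted p = 1.68e-10). These are known hepatocyte enzymes, and the hepatocyte marker sums of the tissues are given above. None of the 6 maternal effect genes found in the tables reached the filter in either tissue.

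**Figure D5:**
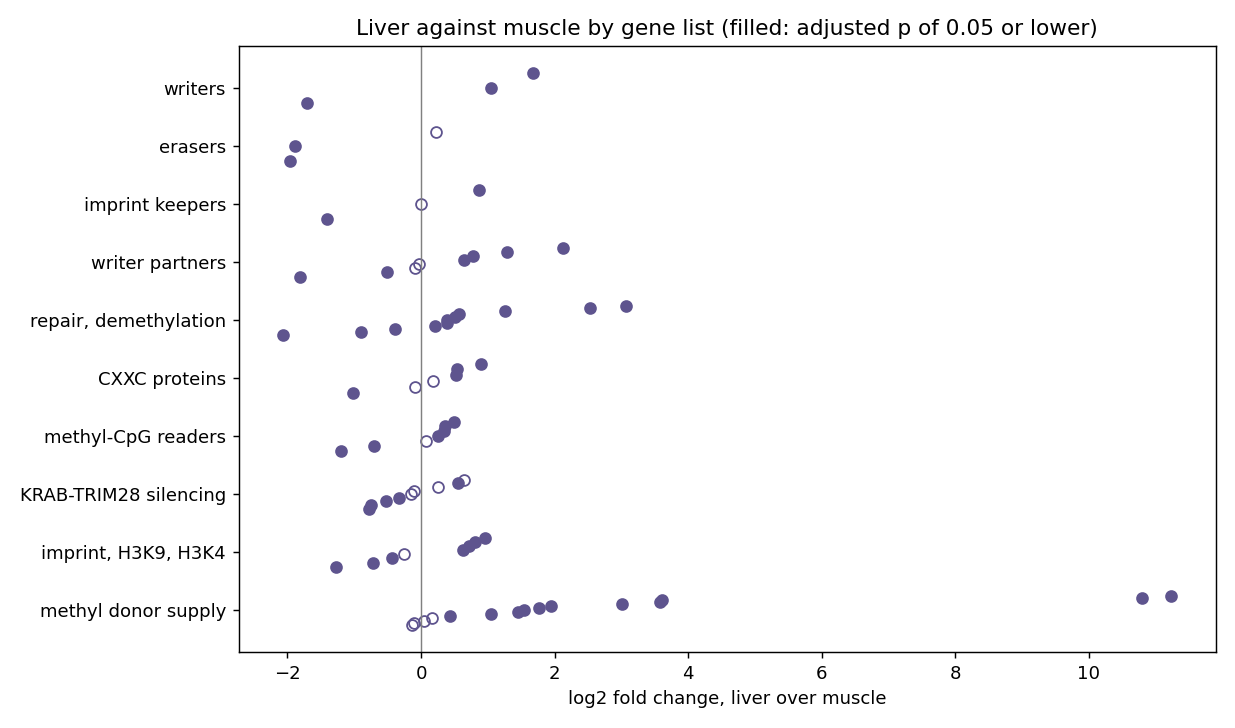
Log2 fold change of liver over muscle (x axis) for each tested gene of the 3 member groups and 7 pathway lists (y axis). Filled points had an adjusted p of 0.05 or lower by edgeR and open points did not. Methyl donor genes reach 11.24, and most other genes lie within a few log2 units of 0 on both sides.

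By conception, 0 of 63 tested pathway genes were called in liver and 0 of 60 in muscle. An unadjusted p under 0.05 was found for 3 genes in liver and 3 in muscle, named here after their values were seen. In liver these were BHMT (log2 fold change of ART over Control 0.57), the H3.3 chaperone DAXX (-0.57) and its partner ATRX (0.48). Without Control 2 these were 0.56 for BHMT, -0.42 for DAXX and 0.28 for ATRX. In muscle these were EHMT1 (0.60), TRDMT1 (-0.54) and CBX1 (0.66), a heterochromatin protein, and without Control 2 they were 0.61 for EHMT1, 0.08 for TRDMT1 and 0.15 for CBX1. The values of TRDMT1 and CBX1 thus rested on Control 2, whose muscle held 158 CPM of TRDMT1 (Control 4 held 75.6 CPM) and 24.1 CPM of CBX1 (Control 4 held 59.8 CPM). These 3 of 63 and 3 of 60 genes stand beside 8.39% and 9.19% of all genes tested.

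The genes whose levels varied most like those of each member were sought after the mean of each tissue was taken off, over the 12 libraries and again over the 10 without Control 2. For 5 members, 1 gene stood among the nearest 3 in both. TRIM28 went with LAMB2, with Pearson r of 0.97 over both sets, and DNMT3A with PRR14L, with 0.96 over both. TET2 went with FAM13B (0.94 and 0.97), TET3 with MARCO (0.94 and 0.96) and DNMT3B with TUBGCP3 (0.91 and 0.95). For DNMT1, UHRF1, TET1 and ZFP57, no gene was shared by both sets. Each r was picked as among the highest 3 over the 12923 genes tested, and the 10 libraries are part of the 12. No background of r was computed, so a high r does not set a gene apart. These values describe deviations among 6 fetuses that share tissue, depth and scaling, and MARCO, a macrophage receptor, was near 0 CPM in muscle, where its deviations rest on few counts. Among pairs of members, DNMT3A and TET3 had an r of 0.75 over 12 libraries and 0.80 over 10. DNMT1 and DNMT3A had 0.60 and 0.86, and TET1 and TRIM28 had -0.73 and -0.55. These pairs were named after their values were seen.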

How the data were processed

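Gene counts of liver and skeletal muscle were used, 1 table a tissue. The authors deposited raw read counts per gene with no normalization. The submitters' processing notes name FastQC 0.11.7, HISAT2 2.1.0, Cufflinks, SAMtools, featureCounts, edgeR 3.24.3 and ARS-UCD1.2. The listed length of each gene was its whole span. Of the count columns, 14 (7 a tissue) matched no sample and were not used, and neither were the authors' deposited tables of comparisons (log2 fold changes, log2 CPM, p-values and FDR).

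From the counts, edgeR 4.0.16 in R 4.3.3 was fitted by quasi-likelihood with TMM factors and Benjamini-Hochberg adjustment at a threshold of 0.05, over genes that reached 5 CPM in each library of some group. ART was compared with Control within each tissue, and liver with muscle, and their interaction, over 12 libraries with conception as a covariate. CPM printed were scaled by TMM over all 12 libraries. Principal components and likeness were computed on log2 CPM (prior count 1). Non-overlap means that every value of one group lay above every value of the other. Python 3.11.15, pandas 2.3.3 and Matplotlib 3.10.9 made tables and plots. The fits were tested on simulated data. Alternatives were RLE, upper quartile, library size alone, no filter or at least 10 counts, the likelihood ratio test and DESeq2 1.42.0. Others were ART 1 to 3, a replicate block, and each fetus left out in turn. Liver against muscle was also fitted in ART fetuses only and in Control fetuses only.

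Each fetus gave both tissues, so liver and muscle are paired by animal. Across genes, the deviations of both tissues of a fetus from their group means had r of 0.21, 0.04, 0.08 and 0.32 in ART 1 to 4 and 0.36 in the Control fetuses, which describes these libraries only. The named genes are all 9 members, up to 3 genes of each pathway list with the largest change between tissues among those called without overlap, and for likeness the 3 genes with the highest r. One gene that this rule names is not reported here. Members and lists were chosen with earlier results of these data known. The p-values of ART against Control within a tissue measure the spread between fetuses. The main fits over 12 libraries had no term for the fetus, so they treat both tissues of a fetus as separate samples. A block for the fetus was run as an alternative only.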

Additional observations from a re-analysis of the deposited data

Results flagged for a closer look

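In the 4 ART libraries of each gene and tissue, 3 values lay far from the others by Dixon's ratio at its 95% critical value, among 18 groups tested, where chance flags about 1 group in 20. TET1 in the liver of ART 1 was 23.9 CPM, while the other ART livers lay between 19.4 and 19.7 CPM. TET3 in the muscle of ART 3 was 49.97 CPM, while the other ART muscles lay between 36.6 and 38.6 CPM. ZFP57 in the muscle of ART 1 was 28.8 CPM, while the other ART muscles lay between 40.6 and 42.7 CPM.

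TRIM28 was flagged for the sign of its log2 ratio of liver over muscle, which was near 0 in most fetuses. The ratio was -0.11 to -0.02 in the 4 ART fetuses, and 0.02 and 0.17 in Control 2 and 4. The mean of the ART fetuses minus that of the Control fetuses was -0.15. This sign rule was applied to the 9 genes, and the share of all genes that meet it was not computed. In the edgeR test of the interaction itself, the value was -0.14 (SE 0.18, adjusted p = 0.960), which missed the threshold.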

How the results depend on the processing

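Over all genes tested, the number called between ART and Control depended on the test and on single fetuses, while 0 of the 9 members were called under any alternative. In liver, where 0 genes were called, library size alone gave 6, the likelihood ratio test 89, DESeq2 56, the replicate block 6 and ART 1 to 3 gave 2, and leaving out 1 fetus gave 0 to 830. In muscle, where 1 gene was called, the likelihood ratio test gave 120, DESeq2 106, the replicate block 90 and ART 1 to 3 gave 0, and leaving out 1 fetus gave 0 to 1327. For the interaction, with 0 called, the likelihood ratio test gave 98, DESeq2 37, and leaving out 1 fetus 0 to 232. The 830, 1327 and 232 came without Control 4, where the lone Control left, Control 2, is assumed to vary like the ART fetuses, and the cause was not tested. The replicate numbers of ART and Control fetuses mark no shared source, and deviations of same-numbered fetuses correlated at 0.01 and -0.12 in liver and at 0.004 and -0.13 in muscle. Between tissues, the 7 called members kept their direction and call under every alternative, over 10177 to 10758 genes called with 1 fetus left out, and TET3 passed with the fetus as a replicate block (0.22, edgeR adjusted p = 0.0449) and without ART 3 (0.29, edgeR adjusted p = 0.0127). Some log2 values near 0 changed sign, none of them called. For ART over Control in liver, these were DNMT1 with upper quartile scaling (-0.033) and ART 1 to 3 (-0.033), DNMT3A with upper quartile (-0.009), DNMT3B with library size alone (0.17) and the replicate block (0.043), UHRF1 (0.063) and TRIM28 (0.006) with library size alone, and with 1 fetus left out DNMT1 (-0.058 to 0.087), DNMT3A (-0.064 to 0.14), DNMT3B (-0.15 to 0.076) and TET3 (-0.014 to 0.17). In muscle these were DNMT1 with upper quartile (-0.003) and the replicate block (-0.010), and with 1 fetus left out DNMT1 (-0.074 to 0.14), DNMT3B (-0.028 to 0.48), TET1 (-0.026 to 0.34) and TRIM28 (-0.15 to 0.069). For liver over muscle it was TRIM28 with RLE (0.003), DESeq2 (0.003), Control fetuses only (0.089) and 1 fetus left out (-0.026 to 0.024). For the interaction these were DNMT1 (0.21), DNMT3A (0.009), TET2 (0.19) and TRIM28 (0.075) with library size alone, and with 1 fetus left out DNMT1 (-0.046 to 0.071), TET1 (-0.081 to 0.20) and TET2 (-0.067 to 0.044). With library size alone, the median log2 fold change of all genes was 0.21 for ART over Control in liver and -0.13 for liver over muscle, against 0.0075 and 0.0061 with TMM. Levels per exon or coding length were not run, as no exon lengths of this build were used. With 2 Control fetuses, small changes of the 9 genes were not detectable here, and larger ones could be missed as well. In liver, the hepatocyte marker AHSG was not called at a log2 fold change of ART over Control of -3.91 (SE 0.78, edgeR adjusted p = 0.354).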
